A study of Rattus norvegicus with 24 samples.

Results

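6 genes of the vessel wall were followed through the carotid bodies (CBs) of hypertensive and normotensive rats. Acta2, Tagln and Cnn1 encode proteins of the smooth muscle contractile apparatus, Itga5 and Itga11 encode integrin receptors for extracellular matrix, and Vegfd encodes a growth factor for vessels. They were taken as the rows of the deposited count table whose Ensembl identifiers the study pairs with these 6 symbols, and they are 6 of the 32623 genes counted. All 6 were among the 14257 genes whose mean normalized count exceeded 10, which were the genes tested. Of those, 1273 carry a symbol in the pairing used here, and the fitted strain difference of each was positive. The members were thus chosen by their higher level in SH rats than in WKY rats, and the strain difference is given below as a description. Its calls in the fit across all genes are counted because they set the genes beside the rest of the table, and they are no independent evidence.

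The CB is a small chemosensory organ at the fork of the common carotid artery whose glomus cells sense blood oxygen and whose tissue is densely vascular. Left and right CBs came from male rats 12-14 weeks old of the strain WKY/NHsd, the normotensive control, or SHR/NHsd, the spontaneously hypertensive (SH) rat. There were 6 rats of each strain, and every rat was euthanised with pentobarbital and perfused through the heart with PBS before dissection. Polyadenylated RNA of each whole CB gave 1 library, so vessels, glomus cells, nerves and connective tissue were read together, and fewer cells of a type and less RNA per cell cannot be told apart. The 2 strains are separately bred lines, so a difference between them cannot be told apart from other inherited differences than that in blood pressure.

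Smooth muscle cells of resistance vessels contract when myosin pulls on filaments built largely of the actin that Acta2 encodes. Transgelin (Tagln) and calponin (Cnn1) bind those filaments, and transcription of many such genes depends on serum response factor, which binds a DNA element named the CArG box. Integrins are pairs of an alpha and a beta chain that tie the actin cytoskeleton to matrix. The alpha 5 chain (Itga5) pairs with beta 1 as the classical fibronectin receptor, and the alpha 11 chain (Itga11) pairs with beta 1 as a receptor for fibrillar collagen, known mainly from fibroblasts. VEGF-D, the product of Vegfd, acts on the receptors of vascular and lymphatic endothelium, among them VEGFR-3, which Flt4 encodes.

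Since the 3 contractile genes form a textbook CArG-dependent group, the upstream sequences of the members are shown, with CArG boxes in capitals. The sequences are the 250 bases before the annotated start in RefSeq's GRCr8 assembly, on the strand of the gene, and the table used held them for 5 of the 6 members, Tagln being the other one. Acta2 lies on the minus strand (chr1:241172504-241172753), Cnn1 on the plus strand (chr8:28908187-28908436), Itga5 on the minus strand (chr7:136381306-136381555), Itga11 on the plus strand (chr8:72041182-72041431) and Vegfd on the minus strand (chrX:33739893-33740142).
Acta2: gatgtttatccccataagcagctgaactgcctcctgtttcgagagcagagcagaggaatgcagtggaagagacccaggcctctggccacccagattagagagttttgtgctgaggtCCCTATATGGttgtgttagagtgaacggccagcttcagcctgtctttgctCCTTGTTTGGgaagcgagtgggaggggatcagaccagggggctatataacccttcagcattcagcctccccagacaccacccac
Cnn1: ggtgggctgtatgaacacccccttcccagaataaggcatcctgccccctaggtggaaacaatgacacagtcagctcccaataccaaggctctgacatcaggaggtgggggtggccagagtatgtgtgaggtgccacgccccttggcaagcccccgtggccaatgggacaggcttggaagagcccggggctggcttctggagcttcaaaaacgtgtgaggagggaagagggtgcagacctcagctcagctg
Itga5: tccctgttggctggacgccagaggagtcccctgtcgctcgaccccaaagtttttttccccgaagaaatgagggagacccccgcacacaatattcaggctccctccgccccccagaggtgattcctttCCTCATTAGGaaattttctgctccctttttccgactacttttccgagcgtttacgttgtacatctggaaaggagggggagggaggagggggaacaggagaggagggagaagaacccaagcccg
Itga11: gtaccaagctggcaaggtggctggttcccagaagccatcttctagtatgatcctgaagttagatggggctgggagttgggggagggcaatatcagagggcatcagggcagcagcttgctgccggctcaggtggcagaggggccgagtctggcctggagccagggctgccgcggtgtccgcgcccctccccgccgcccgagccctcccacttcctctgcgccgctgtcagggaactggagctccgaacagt
Vegfd: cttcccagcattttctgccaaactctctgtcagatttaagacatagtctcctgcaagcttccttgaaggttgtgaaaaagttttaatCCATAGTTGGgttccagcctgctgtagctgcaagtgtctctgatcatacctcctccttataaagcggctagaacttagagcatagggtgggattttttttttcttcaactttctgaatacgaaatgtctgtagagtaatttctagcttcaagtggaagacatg

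No exact CArG box was found in these 5 windows, and the capitals mark the degenerate form with 1 G or C in its core of 6 A or T bases. Acta2 held 2 of these, CCCTATATGG at positions -134 to -125 and CCTTGTTTGG at -84 to -75 from the annotated start. Itga5 held 1, CCTCATTAGG at -123 to -114, and Vegfd held 1, CCATAGTTGG at -163 to -154. The windows of Cnn1 and Itga11 held neither form. The element reads the same way on both strands, so 1 search covered both. Of 33469 rat windows of the same length, 8.08% held an exact or degenerate box and 0.693% held 2 or more. The matches describe letters in a window and say nothing of binding, and the window reaches only as far as the table does.

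The libraries held 9198341 to 13655419 counts each. The right CB of SH rat 34 is left out of the study's normalized table and was left out of the main comparisons here, which rest on 23 libraries, 12 of WKY and 11 of SH rats. That library stood apart. Thyroglobulin (Tg), the product of thyroid follicles, had 7849 CPM (the counts of a gene scaled to a common library size by TMM) in it against 0.0970 to 218 CPM in the other 23, and the 5 glomus markers summed to 79.0 CPM against 1788 CPM in the left CB of the same rat. The sum of the adipocyte markers was also higher there, at 434 against 72.5 CPM. Most of it was Fabp4, at 385 against 6.21 CPM. Adipoq was at 6.31 against 0.443 CPM, Cfd at 1.11 against 0.998, and Lpl was lower at 41.6 against 64.9. The neuronal markers summed lower, at 40.5 against 441 CPM. Side differences of the 6 genes are therefore given with and without it.

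Acta2, the smooth muscle actin, was abundant in all libraries, with 1152 to 6086 counts. In WKY rats, Acta2 had a lowest, median and highest value of 116, 287 and 357 CPM in the left CBs, against 189, 264 and 400 CPM in the right CBs. In SH rats the same values were 198, 364 and 438 CPM on the left, and the 5 right CBs held 272, 275, 442, 575 and 587 CPM. The highest libraries were right CBs of SH rats, but the ranges of all 4 groups overlapped. Averaged over the sides, Acta2 was at 270 ± 68.5 CPM in WKY rats and 372 ± 114 CPM in SH rats (SD, n = 6 each), a difference of 0.46 on the log2 scale (SE 0.198). 3 SH rats lay above all 6 WKY rats, and the lowest SH rat lay below the WKY median.

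Tagln, which encodes the actin-binding protein transgelin, had 1185 to 5880 counts per library. Counts of Tagln in the left CBs of WKY rats corresponded to 120 CPM at the lowest, 240 at the median and 363 at the highest, and those in the right CBs to 176, 234 and 443 CPM. The left CBs of SH rats ran from 187 through 365 to 407 CPM, and their 5 right CBs measured 276, 308, 427, 500 and 521 CPM. The same SH rats were high as for Acta2, and 1 WKY rat, number 34, reached 363 CPM on the left and 443 CPM on the right, inside the upper SH range. The rat means were 249 ± 81.7 CPM in WKY and 358 ± 95.0 CPM in SH rats, which differed by 0.52 (log2, SE 0.20). 2 SH rats exceeded every WKY rat.

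Cnn1 encodes calponin 1, an inhibitor of actomyosin ATPase found in differentiated smooth muscle, and was the least counted of the contractile genes, with 17 to 192 counts per library. Across the left CBs of WKY rats Cnn1 lay between 1.75 and 9.94 CPM with a median of 3.85, and across the right CBs between 3.9 and 16.8 CPM with a median of 7.3. Left CBs of SH rats lay between 3.41 and 10.5 CPM with a median of 8.14, and the 5 right CBs were at 7.56, 10.4, 14, 14.4 and 16.2 CPM. The ranges of all 4 groups overlapped, the 2 lowest values were left CBs of WKY rats, and WKY rat 34 had the highest right CB of all. Means over the rats were 6.35 ± 3.44 CPM in WKY and 9.65 ± 2.53 CPM in SH rats, 0.65 apart on the log2 scale (SE 0.269). 2 SH rats lay above all WKY rats, and no SH library lay above every WKY library.

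Itga5, with 400 to 1356 counts in a library, had narrow ranges within each strain. In WKY rats, Itga5 had a lowest, median and highest value of 40.4, 55.2 and 69.7 CPM in the left CBs, against 44.8, 54.9 and 57.6 CPM in the right CBs. In SH rats the same values were 64, 74.7 and 89.9 CPM on the left, and the 5 right CBs held 69.9, 81.8, 83.5, 90.4 and 98.6 CPM. All but 1 of the 11 SH libraries lay above all 12 WKY libraries. Rat means were 54.1 ± 5.92 CPM in WKY and 79.5 ± 3.04 CPM in SH rats, without overlap, and differed by 0.56 (log2, SE 0.0751).

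Itga11 had 51 to 205 counts in a library. Counts of Itga11 in the left CBs of WKY rats corresponded to 6.48 CPM at the lowest, 9.17 at the median and 10.2 at the highest, and those in the right CBs to 5.06, 8.35 and 10.9 CPM. The left CBs of SH rats ran from 7.28 through 10.1 to 12.8 CPM, and their 5 right CBs measured 13.1, 13.1, 13.8, 14.9 and 15.1 CPM. The 5 right CBs of SH rats lay above all 12 WKY libraries, while the left CBs of SH rats overlapped them. The rat means of 8.48 ± 1.10 CPM in WKY and 11.8 ± 1.20 CPM in SH rats did not overlap, and they differed by 0.48 (log2, SE 0.127).

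Vegfd had 98 to 384 counts in a library. Across the left CBs of WKY rats Vegfd lay between 10.3 and 16.3 CPM with a median of 13, and across the right CBs between 9.73 and 14.8 CPM with a median of 12.2. Left CBs of SH rats lay between 16.2 and 30.8 CPM with a median of 22.4, and the 5 right CBs were at 16, 17.9, 21, 21.3 and 26.3 CPM. 9 of the 11 SH libraries exceeded every WKY library, and rat means did not overlap. Vegfd averaged 12.8 ± 1.87 CPM in WKY and 21.7 ± 4.18 CPM in SH rats, 0.76 apart on the log2 scale (SE 0.106), the widest strain difference among the 6 genes.

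**Figure D1:**
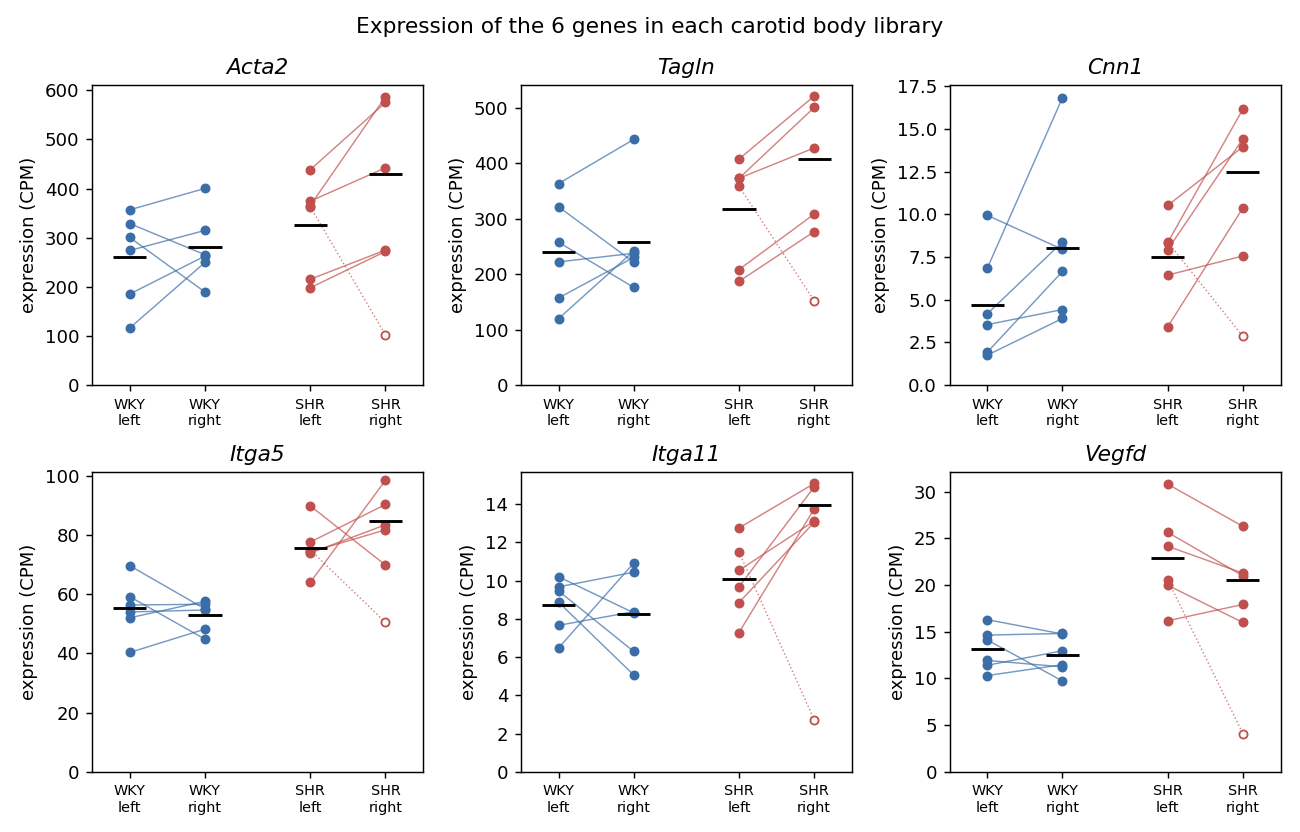
Expression (CPM) of each of the 6 genes in every library of the left and right CBs of WKY (blue) and SH (red) rats, with a line joining the sides of a rat, black bars for group means of the 23 libraries, and an open circle with a dotted line for the right CB of SH rat 34. Itga5, Itga11 and Vegfd separate the rats of the strains, with SH rat means of 79.5, 11.8 and 21.7 CPM against 54.1, 8.48 and 12.8 CPM, whereas Acta2, Tagln and Cnn1 overlap between strains.

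The 6 genes differed in how far the rats of a strain spread. In edgeR's quasi-likelihood fit across all tested genes, 3 of the 6 passed an adjusted p under 0.05 (Itga5, Itga11 and Vegfd), where 20.1% of all tested genes were called, 10.2% were called higher in SH rats, and 64.2% of the genes with a symbol were called higher. In the same 3 genes every SH rat lay above every WKY rat, which held for 3.39% of all tested genes and 27.8% of those with a symbol, while 7.06% of all tested genes did not overlap in either direction. These counts repeat the measure by which the genes were chosen and nothing is read from them. Between rats of a strain, the SD of the rat mean on the log2 scale was 0.459 for Acta2, 0.452 for Tagln and 0.609 for Cnn1, but 0.123 for Itga5, 0.182 for Itga11 and 0.247 for Vegfd. In the right CB of SH rat 34 the values were 102 CPM for Acta2, 152 for Tagln, 2.85 for Cnn1, 50.5 for Itga5, 2.72 for Itga11 and 4.08 for Vegfd, and those of Acta2, Itga11 and Vegfd lay below all 23 other libraries.

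The genes were chosen by strain, a measure that does not use side, though earlier results of these data were known at that choice. Left and right CBs of a rat can be compared within the animal. In 11 rats with both libraries, Cnn1 was higher on the right in 10. Its right minus left difference in log2(CPM + 0.5) ran from -0.31 to 1.56 with a median of 0.91, and WKY rat 41 gave the 1 negative value. The mean was 0.77 ± 0.57 (SD, n = 11 rats, 95% interval 0.39 to 1.16), and an exact two-sided sign-flip test over the rats gave p = 0.00391, where 0.000977 is the smallest p that 11 rats allow. Both strains showed it, with 0.78 ± 0.68 in 6 WKY rats and 0.76 ± 0.49 in 5 SH rats.

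Across all tested genes, 6.93% reached a sign-flip p under 0.05 and 3.88% did so with the right side higher, 1.47% had at least 10 rats on one side of zero, and 0.0842% had a mean difference as large as that of Cnn1. The result did not pass the adjustment over all genes. In edgeR's fit without the rat as a block the log2 fold change of Cnn1 was 0.75 (SE 0.269, unadjusted p = 0.0105, adjusted p = 0.955). With the rat as a block, edgeR gave 0.82 (SE 0.164, unadjusted p = 8.25e-05, adjusted p = 0.700). No gene passed for side in either edgeR fit, which is 0% of 14257 and 0% of 14271 genes, with 702 (4.92%) and 970 (6.8%) genes at an unadjusted p under 0.05. DESeq2 and voom with a rat block also called 0 genes, with 716 and 939 at an unadjusted p under 0.05. With SH rat 34 included, whose right minus left difference was -1.40, the mean was 0.59 ± 0.83 over 12 rats (exact sign-flip p = 0.0356).

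Acta2 and Tagln were higher on the right in 9 of 11 rats each, all 5 SH rats and 4 of 6 WKY rats. For Acta2 the difference ran from -0.66 to 1.10 with a mean of 0.28 ± 0.47 (exact sign-flip p = 0.0723). For Tagln it ran from -0.55 to 1.01 with a mean of 0.27 ± 0.47 (exact sign-flip p = 0.0820). Neither passed 0.05, and 8.0% of all tested genes had at least 9 of 11 rats on one side of zero. With SH rat 34 included the means were 0.11 ± 0.75 for Acta2 and 0.15 ± 0.62 for Tagln (exact sign-flip p = 0.636 and 0.425). Over the 11 rats both depended on single rats. WKY rats 33 and 41 were the 2 rats that were higher on the left. Without rat 33 the exact sign-flip p was 0.00977 for Acta2 and 0.0234 for Tagln, and without rat 41 it was 0.0410 and 0.0234. Without WKY rat 32 it rose to 0.145 and 0.162. For each gene, 2 of the 11 omissions gave a p under 0.05 by this test. The difference of Cnn1 was larger than that of Acta2 in 10 of 11 rats, by 0.49 ± 0.42 on average (exact sign-flip p = 0.00293), and larger than that of Tagln in 10 of 11, by 0.50 ± 0.39 (exact sign-flip p = 0.00391). These 2 contrasts were chosen after the values were seen. With all 12 rats they were 0.48 ± 0.40 (p = 0.00146) and 0.45 ± 0.42 (p = 0.00537) by the same exact test.

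Itga5 was higher on the right in 8 of 11 rats, with a mean of 0.04 ± 0.31 and a 95% interval of -0.16 to 0.25 (exact sign-flip p = 0.641). Vegfd was higher on the right in 4 of 11, with a mean of -0.11 ± 0.22 and an interval of -0.26 to 0.03 (exact sign-flip p = 0.119). For both, a side difference as large as that of Cnn1 lies outside the interval. Over 12 rats with SH rat 34, Itga5 had a mean of -0.0051 ± 0.35 and Vegfd of -0.28 ± 0.63 (exact sign-flip p = 0.963 and 0.0596). Itga11 had a mean of 0.17 ± 0.52 over the 11 rats (exact sign-flip p = 0.291), over both strains together, and of 0.0020 ± 0.78 over 12 (exact sign-flip p = 0.994). It was higher on the right in all 5 SH rats, by 0.51 ± 0.25, and in 3 of 6 WKY rats, with a mean of -0.11 ± 0.53.

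The difference between those means of Itga11, 0.62, had p = 0.0433 by an exact permutation test over the 462 splits of the rats. In edgeR's interaction fit it was 0.55 (SE 0.237, unadjusted p = 0.0280, adjusted p = 0.999). No gene passed the interaction (0% of 14257 called by edgeR, with 438 genes or 3.07% at an unadjusted p under 0.05 and 474 in DESeq2, which also called 0). With the rat as a block edgeR called 0% of 14271 as well, with 4.46% at an unadjusted p under 0.05. With SH rat 34, whose own right minus left difference was -1.89, the difference was 0.22 (exact permutation p = 0.673), so it depended on leaving that library out. For the other 5 genes the exact p of the strain difference in side effect ran from 0.264 to 0.961.

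**Figure D2:**
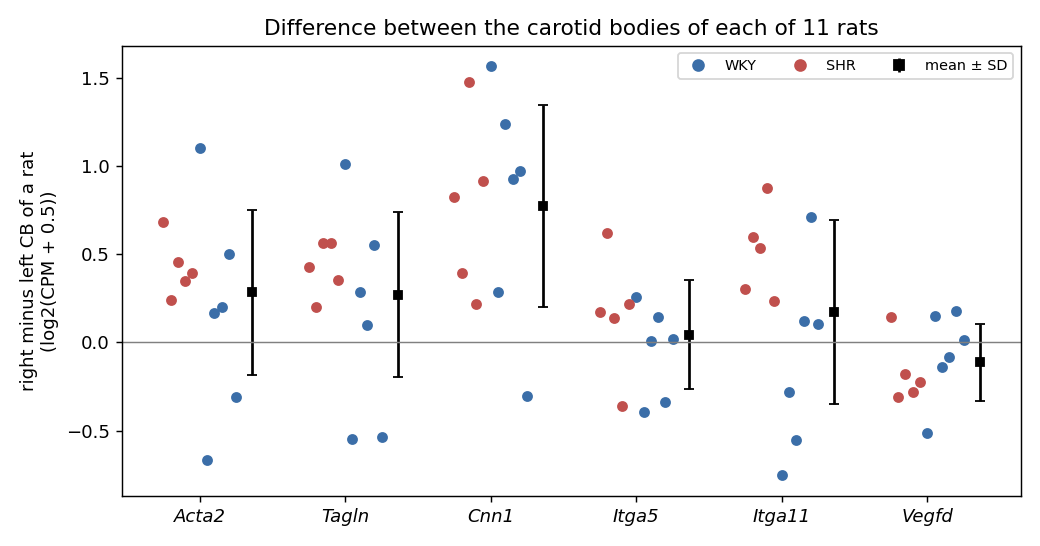
Right minus left difference in log2(CPM + 0.5) of each gene in each of 11 rats (blue WKY, red SH), with the mean and SD over the rats as a black square and bar. The points of Cnn1 lie above 0 in 10 of 11 rats with a mean of 0.77, those of Acta2 and Tagln in 9 of 11 with means of 0.28 and 0.27, and those of Itga5 and Vegfd scatter around 0.

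Markers of other cells were measured beside the side differences. The 6 smooth muscle markers, which include the 3 contractile members, summed higher on the right in 9 of 11 rats, by a median of 0.36 (log2). The range of that sum was 324 to 1052 CPM in left CBs and 472 to 1353 CPM in right CBs. Most of it was Acta2 and Tagln, at 270 and 249 CPM on average in WKY rats against 123 for Tpm2, so it largely repeats these members. Of the markers that are not members, Tpm2 was higher on the right in 9 of 11 rats, Kcnmb1 in 8 and Ppp1r14a in 5. The 5 glomus markers summed higher on the right in 2 of 11 rats, with a median difference of -0.17, and ranged from 1113 to 2095 CPM on the left and from 959 to 1775 CPM on the right. Most of that sum was Chga and Chgb, at 602 and 538 CPM on average in WKY rats, each higher on the right in 2 of 11 rats. Dbh and Ret were higher on the right in 5 of 11 rats each and Slc6a4 in 6. The summed adipocyte markers were higher on the right in 8 of 11 rats (median 0.34). Of these genes, Fabp4 was higher on the right in 8 rats and Adipoq in 7, but Lpl and Cfd in 4 each. By the same sums, striated muscle markers were higher on the right in 7 rats (0.02), mast cell in 7 (0.30) and fibroblast in 6 (0.01). Macrophage markers were so in 6 (0.06), lymphatic endothelial in 6 (0.06), endothelial in 5 (-0.000333) and neuronal in 3 (-0.09). Tg was higher on the right in 7 of 11, between -3.94 and 5.64 with a median of 2.43. No marker on these lists was at 3 counts or fewer in all 23 libraries. Their part in the side difference of Cnn1 was not tested.

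Of the 15 pairs of members, Acta2 and Tagln moved together in their side differences. Over 11 rats, the right minus left differences of Acta2 and Tagln had Pearson r = 0.95 (permutation p = 0.0001, 0.0015 after Benjamini-Hochberg adjustment over the 15 pairs of members) and Spearman rho = 0.85 (permutation p = 0.00172, adjusted 0.0258). Without the 2 rats farthest from the median of Acta2, r was 0.89. No other pair reached an adjusted value under 0.05. Tagln and Cnn1 had r = 0.74 (permutation p = 0.00938, adjusted 0.0703) and rho = 0.52 (permutation p = 0.107, adjusted 0.402), and r was 0.45 without the 2 farthest rats. Acta2 and Cnn1 had r = 0.69 (permutation p = 0.0170, adjusted 0.0851) and rho = 0.55 (permutation p = 0.0810, adjusted 0.402), and r was 0.62 without the 2 farthest. Both pairs depended on single rats or libraries: with SH rat 34 included r was 0.88 for Acta2 and Cnn1 and 0.87 for Tagln and Cnn1 (permutation, adjusted 0.0046 each), though their rho had an adjusted value of 0.117, and without SH rat 36 Tagln and Cnn1 had r = 0.87 (permutation, adjusted 0.00862).

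The remaining 12 pairs ran from r = -0.55 for Tagln and Vegfd to 0.38 for Acta2 and Itga5, with adjusted permutation p of 0.296 or more. Itga11 and Acta2 had r = 0.03, but 0.40 without the 2 rats farthest from the median of Acta2. On leaving out a rat, that r ran from -0.23 to 0.56. So a rat with more Acta2 RNA in one CB had more Tagln RNA in it, and no such relation was detectable for the integrins or Vegfd in 11 rats.

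**Figure D3:**
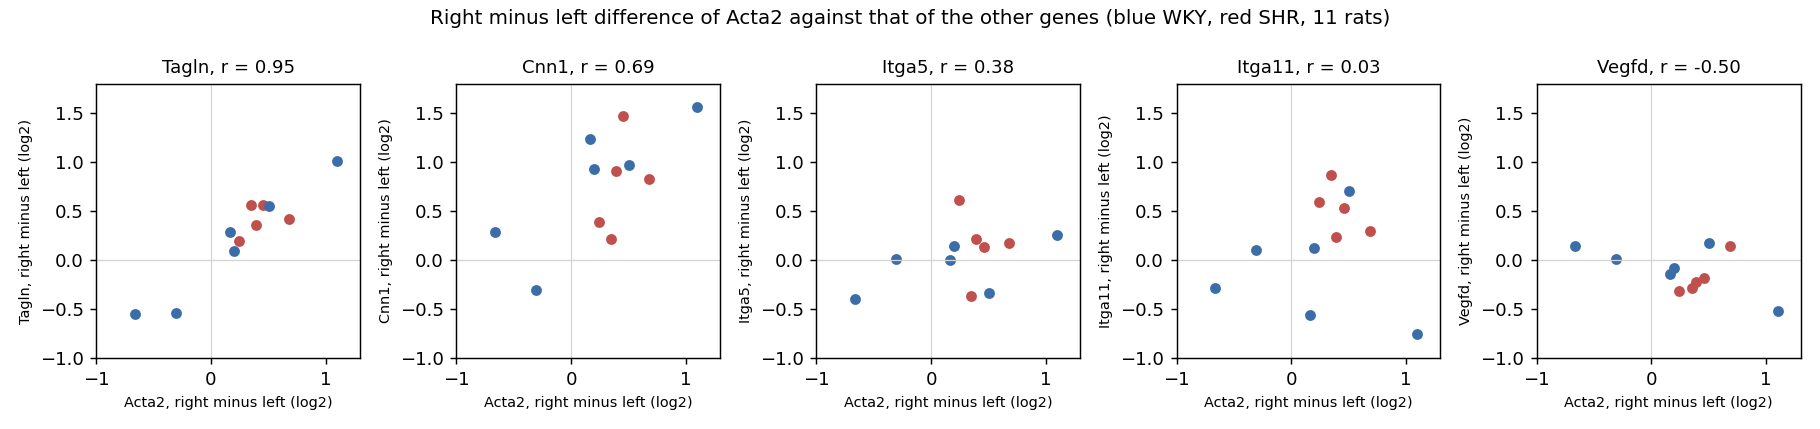
Right minus left difference of Acta2 (x axis, log2) against that of each of the other genes (y axis, log2) in 11 rats, WKY in blue and SH in red, with Pearson r above each panel. The points of Tagln follow those of Acta2 closely at r = 0.95, those of Cnn1 less so at 0.69, and those of Itga5, Itga11 and Vegfd have r of 0.38, 0.03 and -0.50.

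Means of the sides were compared within each strain, where a strain difference cannot contribute. In 6 WKY rats r was 0.93 for Acta2 and Tagln (exact permutation p = 0.00417, adjusted 0.0625), with rho = 1.0 (exact permutation p = 0.00278, adjusted 0.0417). In 6 SH rats it was 0.996 (exact permutation p = 0.00139, adjusted 0.0208), again with rho = 1.0. Without the 2 farthest rats these r were 0.90 and 0.996. In SH rats Cnn1 had r = 0.94 with Acta2 and 0.95 with Tagln, and Itga11 had r = 0.88 with Acta2, each with an adjusted value of 0.0417 by the exact permutation test. Their rho of 0.83, 0.83 and 0.89 had adjusted values of 0.146, 0.146 and 0.125, and their r without the 2 farthest rats were 0.67, 0.73 and 0.77. In WKY rats the same 3 pairs had r of 0.85, 0.90 and 0.36, with adjusted values of 0.132, 0.0625 and 0.731. The SH values hold the left CB alone for rat 34, and the difference between the strains in r was not tested.

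The ratio of Acta2 to Tagln varied less than either gene. Over the 23 libraries the log2 ratio of their CPM ran from -0.16 to 0.41 with an SD of 0.142, while the SDs of the genes themselves were 0.544 and 0.558. The spread between rats of a strain was also set beside the spread between the sides of a rat, scaled so that the ratio is 1 where the sides of a rat are no more alike than those of different rats. It was 1.96 for Acta2, 1.93 for Tagln, 2.13 for Cnn1 and 2.24 for Vegfd, and 0.802 for Itga5 and 0.699 for Itga11. Side differences were centred on their mean over both strains, so a strain difference in them, as Itga11 had over the 11 rats, lowers the ratio. These ratios over 11 rats were not tested.

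Likeness to every tested gene was then taken as the Pearson correlation over the 23 libraries after removal of strain and side means. It is a description, since the libraries of a rat share the animal and genes of one cell type share its amount. Among 14256 other genes, Tagln ranked first for Acta2 at r = 0.96, and among the genes with a symbol Tpm2, the beta chain of tropomyosin, followed at 0.87 and P2rx1, an ATP-gated channel of smooth muscle, at 0.83. For Tagln the list was Acta2, Cnn1 at 0.86 and Tpm2 at 0.85. For Cnn1 it was Tagln at 0.86, P2rx1 at 0.83 and Acta2 at 0.80, where P2rx1 was at 0.93 in WKY and 0.55 in SH libraries alone. Of all tested genes, 17 reached r of 0.8 with Acta2, 18 with Tagln and 5 with Cnn1.

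The integrins and Vegfd had other neighbours. Itga5 was nearest to Ushbp1 at r = 0.86. Among genes with a symbol, Syde1 followed at 0.78 and the tyrosine kinase gene Fes at 0.75. Itga11 had no gene at 0.8 or above, and its nearest with a symbol were the adaptor gene Stap2 at 0.66, the tubulin gene Tuba1c at 0.63 and Fam78a at 0.62, and in SH libraries alone Tuba1c was at 0.16 and Fam78a at 0.24. For Vegfd the nearest with a symbol was Steap3, a ferric reductase, at 0.72. Angpt1, the ligand of the endothelial receptor Tek, followed at 0.70 and the complement gene C7 at 0.69. They ranked 4, 5 and 6 among all tested genes. With Acta2, Itga5 had r of 0.38, Itga11 0.31 and Vegfd 0.04.

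6 lists of related genes with a symbol were read beside the members. Of 10 further genes of the smooth muscle apparatus, 3 were called higher in SH rats by edgeR, and 9 had a right minus left log2 fold change above zero (median 0.13, against 0.000818 over all tested genes). The largest were Rergl at 1.07 (SE 0.479, unadjusted p = 0.0353, edgeR adjusted p = 0.955, higher on the right in 7 of 11 rats) and P2rx1 at 0.37 (SE 0.233). Their strain differences ran from 0.31 for Actc1, the cardiac actin, to 0.78 for Mylk3, a myosin light chain kinase known from heart, and neither was called. The median r with Acta2 was 0.55, and the lowest was -0.40 for Actc1.

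Of 11 genes of actin and focal adhesion, 9 were called higher in SH rats, from 0.28 for Tln2, which encodes talin 2, to 0.51 for Zyx, which encodes the adhesion protein zyxin. For side, 10 of the 11 were above zero (median 0.10), and the largest were Tln2 at 0.31 (SE 0.0931, unadjusted p = 0.00239, edgeR adjusted p = 0.955) and Myh9, a nonmuscle myosin, at 0.18. Their median r with Acta2 was 0.41, and Tln2 was at -0.13. Of 7 genes that serum response factor or YAP are known to drive, only Ccn2, a matricellular growth factor, was called, at 223 ± 29.5 CPM in WKY and 397 ± 197 CPM in SH rats (log2 fold change 0.68, SE 0.160). Jun was the lowest at 0.31. These genes leaned to the left, with 5 of 7 below zero for side and a median of -0.11, Ccn2 at -0.25 being the farthest, while their median r with Acta2 was 0.53.

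Other integrin alpha subunits and matrix genes came next. Of 3 other integrin alpha subunits, Itga9 (0.39, SE 0.136) and Itga10 (0.28, SE 0.0944) were called higher in SH rats, and for side they were at 0.27 and -0.02, with a median r with Acta2 over the 3 of 0.09. Of 14 matrix genes, 10 were called, from 0.30 for Tnc, the matrix glycoprotein tenascin C, to 2.85 for Tnn, tenascin N, which went from 1.69 ± 1.25 to 12.8 ± 9.30 CPM. For side, 12 of the 14 were above zero with a median of 0.10, led by Tnn at 0.74 (SE 0.459) and the proteoglycan gene Vcan at 0.16. Their median r with Acta2 was 0.18.

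Of 12 vascular growth genes, 9 were called higher in SH rats, from 0.28 for Angpt2, an antagonist ligand of Tek, to 0.64 for Dll4, a Notch ligand of arterial and sprouting endothelium (26.5 ± 4.02 against 41.7 ± 3.45 CPM). For side, 5 of 12 were above zero with a median of -0.04, and Igf2 was the farthest at 0.24 (SE 0.102, unadjusted p = 0.0248, edgeR adjusted p = 0.955), followed by Angpt1 at 0.13. Their median r with Acta2 was 0.29. Over all 6 lists the genes share the selection for a higher level in SH rats, so 10.2% of all genes and 64.2% of those with a symbol are the shares beside which the strain counts stand. No list gene passed for side or for the interaction with strain.

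**Figure D4:**
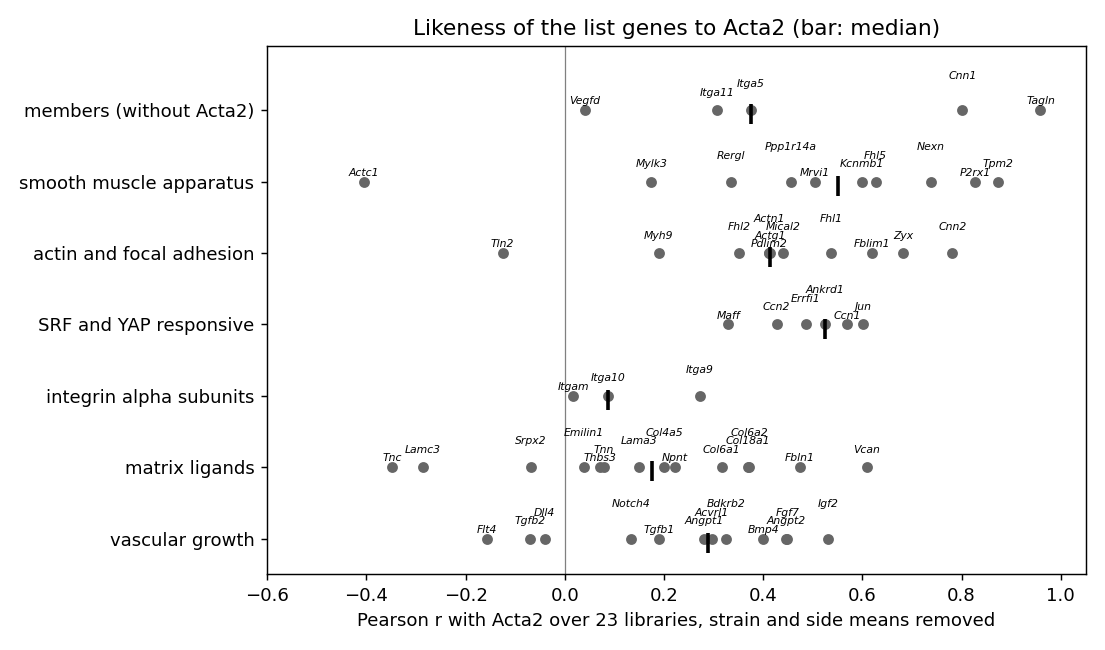
Pearson r with Acta2 over 23 libraries, after removal of strain and side means (x axis), of the other 5 members and of the genes in the 6 lists (rows), each point a gene, with a bar at the list's median; 1 gene responsive to SRF and YAP counts in its median and is not drawn. The medians are 0.55 for the smooth muscle apparatus, 0.41 for actin and focal adhesion, 0.53 for genes responsive to SRF and YAP, 0.09 for integrin alpha subunits, 0.18 for matrix and 0.29 for vascular growth, against -0.00334 over all tested genes.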

How the data were processed

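The authors sequenced polyadenylated RNA (TruSeq stranded mRNA libraries) and deposited raw counts per Ensembl gene. Their processing notes name FastQC, STAR, featureCounts and DESeq2. Versions, genome build, annotation release, and strand and multi-mapping settings are not given in the sources used here, so reads shared with near-identical actin genes could be assigned differently. Symbols came from the identifiers that the study's table of normalized values pairs with them. Its columns also set the main set of 23 libraries, and no value of it was used. The members and the lists were chosen with earlier results of these data known.

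Counts of 23 libraries were fitted in R 4.3.3 with edgeR 4.0.16 (TMM, robust quasi-likelihood F-test) with strain and side as terms, and with their interaction in a second fit, keeping genes whose normalized counts averaged more than 10, and p-values were adjusted by Benjamini-Hochberg (threshold 0.05). All tests were two-sided. CPM was scaled by TMM, sides of a rat were averaged, and right minus left was taken on log2(CPM + 0.5). Exact sign-flip tests ran over 11 rats, and correlation tests used 100000 resamples for 11 rats and full enumeration for 6. DESeq2 1.42.0 and limma 3.58.1 (voom) were alternatives, beside other scalings, filters, pseudocounts, sets of libraries and leaving out each rat. Tables and plots were made with Python 3.11.15, pandas 2.3.3, SciPy 1.17.1 and matplotlib 3.10.9. The edgeR fits for strain, side and interaction were checked on simulated counts that held no rat effect.

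Left and right CBs with 1 number come from 1 rat by their labels. The correlation of their deviations from the group means had a median of 0.115 over 11 rats (-0.0359 to 0.283), against -0.0284 between different rats. No pair of libraries agreed within sampling noise (lowest chi-square per degree of freedom over 253 pairs 5.18). From each of the 6 lists, the text names any gene called for side, otherwise the 2 with the largest side change, and the highest and lowest strain change, and it names the 3 genes with a symbol most like each member. 1 list gene that this rule names is not reported here. The 11 lists of cell markers were summed per library. Depth was similar in all groups, and Cnn1 and Itga11 are the members that counting error touches most.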

Additional observations from a re-analysis of the deposited data

Results flagged for a closer look

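The right CB of WKY rat 34 stood away from the other 5 right CBs of its strain in 2 of the contractile genes. Tagln was at 443 CPM there, with the next library at 241 CPM, so the gap took 0.754 of the whole range of the 6. Cnn1 was at 16.8 CPM, with the next at 8.38 CPM and a gap of 0.654 of the range. Of 36 groups of values examined in this way these were the 2 that passed, where chance passes about 5%. The library had 9535018 counts, within the range of the others. Acta2 was also highest there among WKY right CBs, at 400 CPM, with the next at 315 CPM.

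Over 11 rats, Itga11 differed between strains in its right minus left difference, by 0.62 on the log2 scale (exact permutation p = 0.0433). It was higher on the right in 5 of 5 SH rats and 3 of 6 WKY rats. 6 genes were tested in this way, and over all genes edgeR's adjusted p for this difference was 0.999. With SH rat 34 included, whose right minus left difference was -1.89, the difference between strains was 0.22 (exact permutation p = 0.673).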

How the results depend on the processing

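The number of genes called for strain, 2861, was 1482 with all 24 libraries, 1270 in left CBs alone, 838 in right CBs alone and 2193 to 2831 on leaving out a rat. The strain difference of Itga11 was no longer called with all 24 libraries (0.38) or in left CBs alone (0.21), and that of Tagln was called by DESeq2 (0.52). On leaving out a rat, strain values ran from 0.34 to 0.58 for Acta2 (called without SH rat 33), 0.42 to 0.71 for Tagln (called without WKY rat 34, SH rat 33 or SH rat 36), 0.50 to 0.90 for Cnn1 (called without WKY rat 34 or 41), 0.51 to 0.61 for Itga5, 0.42 to 0.52 for Itga11 and 0.65 to 0.82 for Vegfd, the last 3 called in all 12.

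The replicate block with rat numbers shared across strains, which name different animals, gave 1568 strain calls and left Itga11 uncalled (0.46). The replicate block of voom, with both sides of a rat as a pair, called Cnn1 for strain (0.79), which counts summed per rat did not (0.61). The replicate block for side with all 24 libraries, chosen after seeing the data, put Itga5 at -0.0037, and the rat block changed no side or interaction call.

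For side, Itga5 and Itga11 were at -0.066 and -0.085 in WKY rats alone. Leaving out a rat gave 0.65 to 0.91 for Cnn1, 0.19 to 0.33 for Acta2, 0.18 to 0.30 for Tagln, -0.013 to 0.087 for Itga5, 0.13 to 0.26 for Itga11 and -0.14 to -0.09 for Vegfd, with 0 genes called by edgeR each time. The exact sign-flip p of Cnn1 then ran from 0.00195 to 0.00781. The interaction of Cnn1 ran from -0.40 to 0.19.

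With 12 rats, r was 0.88 for Acta2 and Cnn1 and 0.87 for Tagln and Cnn1, both then past the threshold. It was 0.63 for Acta2 and Itga11 and 0.77 for Itga11 and Vegfd, not past it, and turned positive for Vegfd with Acta2 (0.66), Tagln (0.53), Cnn1 (0.64) and Itga5 (0.34), and for Itga11 with Cnn1 (0.44) and Itga5 (0.34). On leaving out a rat, r ran from -0.23 to 0.56 for Acta2 and Itga11, -0.11 to 0.57 for Tagln and Itga11, -0.078 to 0.35 for Tagln and Itga5, -0.35 to 0.12 for Itga5 and Itga11, and -0.26 to 0.35 for Itga11 and Vegfd, while Acta2 and Tagln stayed between 0.93 and 0.96. Of 54 values of likeness in all 24, WKY or SH libraries, 44 differed from those over 23 libraries by more than the SD over leaving out a rat, and Fam78a with Itga11 was at 0.20 in all 24. The cause of these changes was not tested. Cnn1 with 17 counts at the lowest is where depth limits precision most.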
